A study of Mus musculus with 6 samples.

Results

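A set of 10 genes of the hypoxia-inducible factor (HIF) pathway was followed in leukemia-initiating cells (LICs). The 10 were chosen by symbol from the 27179 genes of the deposited table by their known roles, with no threshold on a measured value, although earlier results of these data were known when the list was made. They are the HIF subunits Hif1a, Epas1 and Arnt, the oxygen-sensing hydroxylases Egln1, Egln2, Egln3 and Hif1an, the ubiquitin ligase component Vhl, and the targets Vegfa and Bnip3. All 10 had a row in the table, 9 had reads, and the same 9 passed the filter for testing.

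The cells came from an acute myeloid leukemia made with a retrovirus that carries the fusion oncogene MLL-AF9 and, after an internal ribosome entry site, YFP. The virus was put into Lin- fetal liver cells of Asic3+/+ (WT) or Asic3-/- (Asic3-null) mice, where Asic3 is an acid-sensing ion channel, and the cells were transplanted into lethally irradiated C57BL/6 recipients. Both groups therefore carry MLL-AF9, and only the donor genotype is labelled as different. LICs were sorted as YFP+Mac-1+c-Kit+ cells, so that the YFP gate selects cells that carry the virus, and the labels give the strain as C57BL/6 and the age as 8 weeks. RNA sequencing was done on 3 libraries labelled Asic3-null and 3 labelled WT, and the labels do not say whether each library came from its own mouse, so that p-values measure the spread between these samples. The question here is whether the oxygen-sensing machinery and its target genes differed between the groups.

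In the textbook account, HIF is a pair of an oxygen-regulated alpha subunit (HIF-1α from Hif1a or HIF-2α from Epas1) and a stable beta subunit (Arnt). In oxygenated cells the EGLN prolyl hydroxylases mark the alpha subunit, VHL binds the mark and the protein is degraded, while HIF1AN hydroxylates an asparagine and blocks recruitment of coactivators. When oxygen is low, the alpha subunit accumulates and switches on genes for glycolysis, angiogenesis and mitophagy, among them its own inhibitor Egln3. Since this control acts largely on the protein, mRNA levels of the subunits do not measure HIF activity.

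The pair of HIF binds a short core of 5 bases, ACGTG or GCGTG, and this core was searched on both strands (so also as CACGT and CACGC) in the 250 bases upstream of the RefSeq start sites (GRCm38.p6). Windows were found for 9 of the 10 genes, of which 7 held at least 1 core in any of their windows. By window, 8 of their 11 held a core, against 38.6% of all 32851 windows. At least 2 matches were found in 16.7% of all windows and at least 4 in 2.58%, with a palindrome counted on each strand. The windows of 3 genes are shown, that of Egln3 because it had the lowest p of the 9 tested genes. That of Bnip3 is shown because it held the most matches. With its palindrome counted once, it ties with the Egln2 window that held 4. That of Egln1 is shown as the Egln gene to set beside Egln3. Capitals mark the cores, and all 3 run 5′ to 3′ on the minus strand, with the last base next to the start site.
Egln3, chr12:54203875-54204124: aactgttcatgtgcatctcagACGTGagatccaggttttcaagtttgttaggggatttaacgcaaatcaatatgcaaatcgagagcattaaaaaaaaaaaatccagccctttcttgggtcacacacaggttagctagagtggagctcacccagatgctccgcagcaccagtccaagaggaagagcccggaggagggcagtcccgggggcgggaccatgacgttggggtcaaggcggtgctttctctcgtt
Bnip3, chr7:138909507-138909756: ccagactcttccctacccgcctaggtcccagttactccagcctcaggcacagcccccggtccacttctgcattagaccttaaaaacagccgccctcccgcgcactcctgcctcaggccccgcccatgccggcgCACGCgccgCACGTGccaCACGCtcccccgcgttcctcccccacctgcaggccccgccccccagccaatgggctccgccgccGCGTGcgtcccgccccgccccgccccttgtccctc
Egln1, chr8:124949255-124949504: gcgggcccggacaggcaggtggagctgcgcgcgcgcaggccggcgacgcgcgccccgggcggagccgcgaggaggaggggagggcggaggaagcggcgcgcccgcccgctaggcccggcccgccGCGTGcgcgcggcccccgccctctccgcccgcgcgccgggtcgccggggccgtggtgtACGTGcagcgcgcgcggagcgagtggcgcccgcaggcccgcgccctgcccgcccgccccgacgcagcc
The Egln3 window held 1 core, at position -229 from the start site. The Bnip3 window held 5 matches, at -117, -108, -107, -99 and -35, of which the pair at -108 and -107 is a single palindrome read on both strands. The Egln1 window held 2, at -126 and -68. Hif1a had 3 matches, at -135, -134 and -70, of which the first pair is likewise 1 palindrome, and Arnt had 1, the 2 start sites of Egln2 had 4 and 1, those of Vegfa had 0 and 2, and the windows of Hif1an and Vhl had none. A match is a description of the letters and not a measured binding site.

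The levels are RPKM (reads scaled to the length of the gene and the size of the library), and differences were tested by limma on log2(RPKM + 1). The library size inferred from the values ran from 1947168 to 2381861 reads, at which 1 read in a gene of 2 kb is worth 0.21 to 0.257 RPKM. Asic3 itself ran against the labels, with 9.12, 4.11 and 6.58 RPKM in Asic3-null libraries and 1.22, 1.85 and 0.44 RPKM in WT libraries (limma adjusted p = 0.0260), so directions are given by label throughout, and Asic3-null and WT libraries are named by their labels only. Xist was at 46.5 to 71.9 RPKM in Asic3-null libraries and at 0.02 to 0.06 RPKM in WT libraries. The sex of the cells and the genotype label therefore cannot be told apart for any gene below. The sort markers Itgam (Mac-1) and Kit were present in every library, and Itgam was called lower in Asic3-null libraries, at 12.3 to 16.9 against 55.1 to 89.5 RPKM. Kit was at 14.4 to 20.4 against 8.97 to 15.3 RPKM (limma adjusted p = 0.219), and the leukemia gene Meis1 was called higher, at 21.7 to 35.3 against 14.0 to 14.9 RPKM (limma adjusted p = 0.0367), while the leukemia gene Hoxa9 was at 42.3 to 67.1 against 73.5 to 87.8 RPKM, without overlap (log2 fold change -0.58, limma adjusted p = 0.151). All 10 mature neutrophil markers were called lower in Asic3-null libraries, where 2.82% of all tested genes were. Their sums were 238.0 to 374.8 against 3898 to 4340 RPKM. All 5 tested monocyte and macrophage markers had a log2 fold change below 0, and 3 of them (Adgre1, Csf1r and Ccr2) were called lower. The monocyte and macrophage sums of 1008 to 1167 against 1365 to 1493 RPKM are mostly Ly6c2, which was not called (limma adjusted p = 0.166). Erythroid markers summed to 0.972 to 2.42 against 2.84 to 10.3 RPKM and T cell markers to 0.498 to 0.741 against 0 to 0.726 RPKM. Cd79b alone of the 5 B cell markers and Pecam1 alone of the 5 endothelial markers passed the filter, while Ms4a1, Kdr, Tek and Emcn were listed at 0. Pdgfrb alone of the 5 stromal markers passed it, and the stromal markers summed to 22.6 to 38.3 against 10.8 to 19.6 RPKM. The part of the granulocyte and monocyte markers in the results below was not tested, and in sorted bulk cells a change in the makeup of the cells and a change in RNA per cell cannot be told apart.

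None of the 9 tested HIF pathway genes was called at an adjusted p under 0.05 by limma, 1 had an unadjusted p under 0.05 (Egln3), and limma-voom on reads recovered from the RPKM values also called 0. Over all 12037 tested genes limma called 403, or 3.35%, with 0.523% higher in Asic3-null libraries and 2.82% lower, and limma-voom called 4.54%. An unadjusted p under 0.05 was reached by 15.9% of all tested genes. None of the 9 genes had groups without overlap, against 22.6% of all tested genes. The median log2 fold change of the 9 genes was -0.08, with 4 above 0 and 5 below, and that of all tested genes was 0.03. On the log2 scale the widest differences were those of Egln3, Vegfa and Bnip3.

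**Figure D1:**
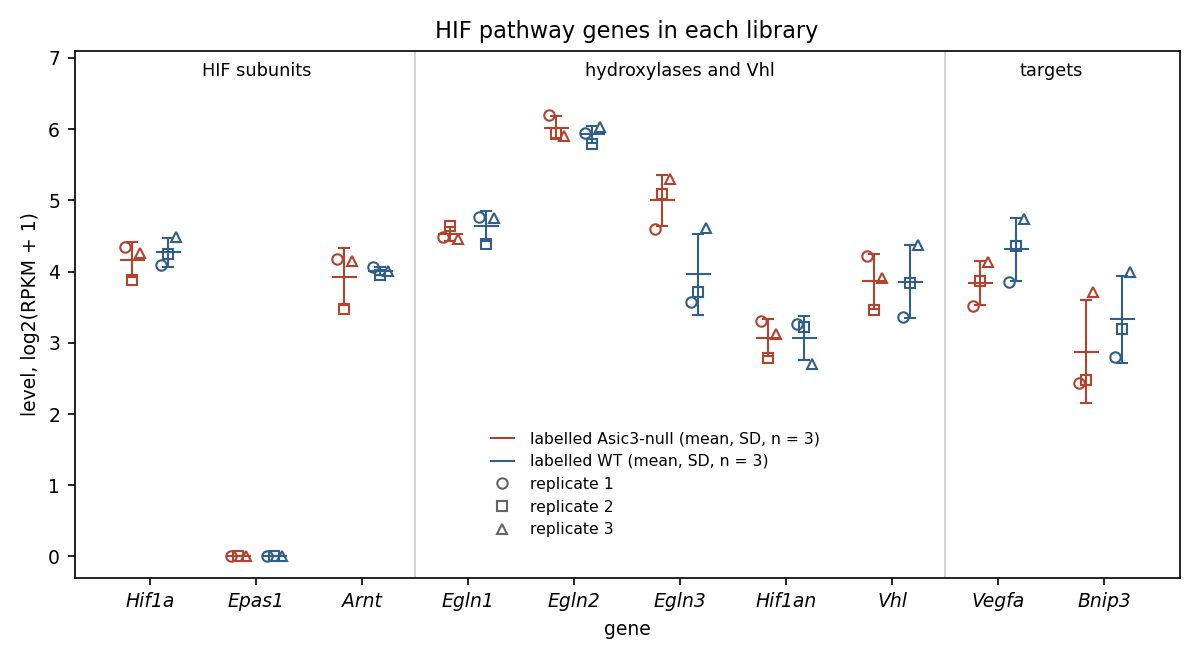
Level of each of the 10 genes in each library as log2(RPKM + 1), with the mean and SD (n = 3) of the libraries labelled Asic3-null and WT as bars and the replicates as symbols. Egln2 stands highest, Epas1 lies at 0 in all 6 libraries, and Egln3 is the gene whose group means lie farthest apart, with replicate 1 of Asic3-null and replicate 3 of WT at nearly the same level.

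Of the alpha subunits, Hif1a was detected and Epas1 was not. Hif1a (Entrez 15251, chromosome 12, 73901324 to 73947554) had 19.3, 13.8 and 18.2 RPKM in Asic3-null libraries and 16.0, 17.9 and 21.3 RPKM in WT libraries. The lowest library was Asic3-null replicate 2 and the highest WT replicate 3, and the groups overlapped. Group means were 17.1 ± 2.94 and 18.4 ± 2.69 RPKM (SD, n = 3 each), with a log2 fold change of -0.11 (SE 0.18, limma adjusted p = 0.826). Its 95% interval ran from -0.52 to 0.31, so that a fall or rise inside those limits could not be seen here. The RefSeq span of Hif1a overlaps the noncoding gene Gm15283, and the library kit did not mark strand, so reads of the pair cannot be told apart. Epas1 (Entrez 13819, chromosome 17, 86753864 to 86833410), which encodes HIF-2α, was listed at 0 in all 6 libraries and was not tested. A count of 0 allows up to 3 reads per library, so this is a limit of detection.

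Arnt (Entrez 11863, chromosome 3, 95434367 to 95497240), the beta subunit, had 17.1, 10.1 and 16.7 RPKM in Asic3-null libraries and 15.7, 14.5 and 15.1 RPKM in WT libraries. The WT libraries lay close together and Asic3-null replicate 2 stood below the other 5. Means were 14.6 ± 3.93 and 15.1 ± 0.608 RPKM (SD, n = 3 each; log2 fold change -0.08, SE 0.21, 95% interval -0.55 to 0.40, limma adjusted p = 0.898).

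Among the hydroxylases, Egln3 rather than Egln1 or Egln2 had the wider difference between the groups, although it did not pass the test. Egln3 (PHD3; Entrez 112407, chromosome 12, 54178981 to 54203874) is a prolyl hydroxylase whose gene HIF itself induces. It had 23.2, 33.1 and 38.5 RPKM in Asic3-null libraries and 10.8, 12.1 and 23.5 RPKM in WT libraries. WT replicate 3 stood apart from the other WT libraries and reached just above Asic3-null replicate 1, which was the one overlap between the groups. The reads recovered for Egln3 were 144, 211 and 242 against 61, 63 and 149. The mean was 31.6 ± 7.74 RPKM against 15.5 ± 6.99 RPKM (SD, n = 3 each), with a log2 fold change of 1.03 (SE 0.29, 95% interval 0.37 to 1.70, limma adjusted p = 0.113), or 2.05-fold on the log2(RPKM + 1) scale. The unadjusted limma p was 0.00654, and the exact permutation test gave a two-sided p of 0.20, where 3 against 3 cannot go below 0.10. The adjusted p was 0.0503 with limma-voom. Egln3 was called without WT replicate 3, where the log2 fold change was 1.36 and the limma adjusted p 0.0263. With all libraries kept, it was also called under a block for the replicate number (limma adjusted p = 0.0487). The replicate numbers do not pair the samples, as set out in the last section.

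Egln1 and Egln2 differed by less than the spread between libraries. Egln1 (PHD2; Entrez 112405, chromosome 8, 124908587 to 124949254), usually the main enzyme to set HIF-1α in oxygenated cells, had 21.3, 23.9 and 20.9 RPKM in Asic3-null libraries and 26.2, 20.0 and 26.0 RPKM in WT libraries. The Asic3-null libraries lay inside the range of the WT libraries. Group means were 22.1 ± 1.65 and 24.1 ± 3.54 RPKM (SD, n = 3 each; log2 fold change -0.11, SE 0.16, 95% interval -0.47 to 0.25, limma adjusted p = 0.781). Reads of Egln1 could include some of the overlapping noncoding gene Gm46060. Egln2 (PHD1; Entrez 112406, chromosome 7, 27158658 to 27166802), the third prolyl hydroxylase, had 72.8, 60.6 and 59.0 RPKM in Asic3-null libraries and 60.7, 54.6 and 64.6 RPKM in WT libraries. Asic3-null replicate 1 was the highest and the other Asic3-null libraries lay within the WT range. Group means were 64.1 ± 7.53 and 60.0 ± 5.02 RPKM (SD, n = 3 each; log2 fold change 0.09, SE 0.14, 95% interval -0.22 to 0.40, limma adjusted p = 0.789).

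The make-up of the prolyl hydroxylase mRNA was also compared, as the share of each gene in the summed RPKM of the 3 Egln genes. Egln3 held 19.8%, 28.1% and 32.5% of the sum in Asic3-null libraries and 11.1%, 14.0% and 20.6% in WT libraries. The group means were 26.8% ± 6.5 and 15.2% ± 4.9 (SD, n = 3 each; exact permutation test, two-sided p = 0.20). Egln1 held 18.2%, 20.4% and 17.7% against 26.8%, 23.0% and 22.8%, which did not overlap (18.8% ± 1.4 and 24.2% ± 2.2, SD, n = 3 each; exact permutation test, two-sided p of 0.10, which is the smallest possible). Egln2 took the largest share in every library, 49.8% to 62.0% against 56.6% to 63.0%. The summed RPKM was 117.3, 117.6 and 118.4 in Asic3-null libraries and 97.7, 86.7 and 114.1 in WT libraries. The 4 exact tests of this kind have no adjusted p under 0.05, since none can be below 0.10. A share is not a level, and a lower Egln1 share stood beside overlapping Egln1 levels.

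**Figure D2:**
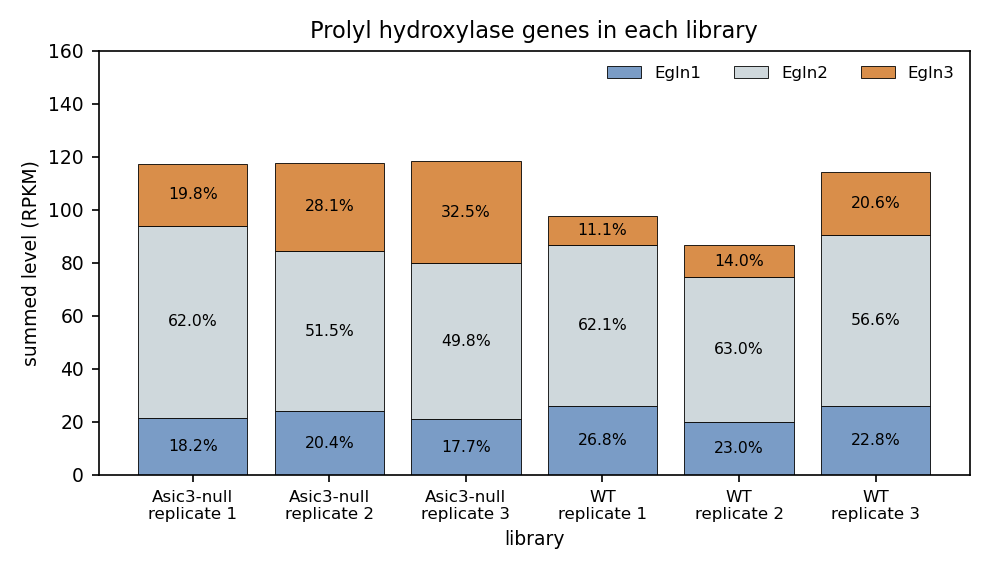
Summed RPKM of Egln1, Egln2 and Egln3 in each library, with the share of each gene in percent. The Egln3 share is largest in Asic3-null replicate 3, at 32.5%, and smallest in WT replicate 1, at 11.1%, and Egln2 makes up the largest part of every bar.

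Vhl and Hif1an did not separate the groups. Vhl (Entrez 22346, chromosome 6, 113623994 to 113631634), which recognises the hydroxylated alpha subunit, had 17.6, 9.996 and 14.0 RPKM in Asic3-null libraries and 9.23, 13.4 and 19.8 RPKM in WT libraries. Both groups covered much the same range. Group means were 13.9 ± 3.79 and 14.1 ± 5.33 RPKM (SD, n = 3 each), and the log2 fold change was 0.0020 (SE 0.29, 95% interval -0.65 to 0.65, limma adjusted p = 0.998). Hif1an (factor inhibiting HIF; Entrez 319594, chromosome 19, 44562854 to 44576274), the asparagine hydroxylase, had 8.93, 5.90 and 7.71 RPKM against 8.61, 8.30 and 5.53 RPKM. The lowest library of one group lay near the lowest of the other. Group means were 7.51 ± 1.52 and 7.48 ± 1.70 RPKM (SD, n = 3 each; log2 fold change 0.01, SE 0.23, 95% interval -0.51 to 0.53, limma adjusted p = 0.991).

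Both target genes had lower means in Asic3-null libraries, with overlapping groups. Vegfa (Entrez 22339, chromosome 17, 46016993 to 46032377), the angiogenic growth factor and a classic HIF target, had 10.5, 13.6 and 16.6 RPKM in Asic3-null libraries and 13.4, 19.4 and 25.6 RPKM in WT libraries. WT replicate 3 was the highest of the 6 and Asic3-null replicate 1 the lowest. Group means were 13.6 ± 3.09 and 19.5 ± 6.08 RPKM (SD, n = 3 each), with a log2 fold change of -0.47 (SE 0.25, 95% interval -1.04 to 0.10, limma adjusted p = 0.402; exact permutation test, two-sided p = 0.30). With 1 library left out its log2 fold change ran from -0.70 (WT replicate 1 left out) to -0.26 (WT replicate 3).

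Bnip3 (Entrez 12176, chromosome 7, 138890836 to 138909506), a mitophagy receptor of the outer mitochondrial membrane, had 4.43, 4.54 and 12.1 RPKM in Asic3-null libraries and 5.96, 8.19 and 14.9 RPKM in WT libraries. In each group replicate 3 stood above the other replicates, and the highest library was 2.74 times the lowest in Asic3-null libraries and 2.50 times in WT libraries. Bnip3 had 18 to 62 reads, and the exact Poisson 95% interval of Asic3-null replicate 3 was 9.0 to 15.99 RPKM. It lay above those of Asic3-null replicates 1 and 2 (2.62 to 6.997 and 2.74 to 7.09 RPKM). The interval of WT replicate 3 was 11.4 to 19.1 RPKM. It lay above that of WT replicate 1 (3.73 to 9.02 RPKM) and overlapped that of WT replicate 2 (5.44 to 11.8 RPKM). These intervals cover counting error only and not the spread between samples. Group means were 7.03 ± 4.41 and 9.69 ± 4.66 RPKM (SD, n = 3 each; log2 fold change -0.46, SE 0.40, 95% interval -1.37 to 0.46, limma adjusted p = 0.626). With 1 library left out its log2 fold change ran from -0.87 (Asic3-null replicate 3 left out) to -0.12 (WT replicate 3). The RefSeq span of Bnip3 overlaps the pseudogene Gm18258, and how reads of such a pair were assigned is not known.

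**Figure D3:**
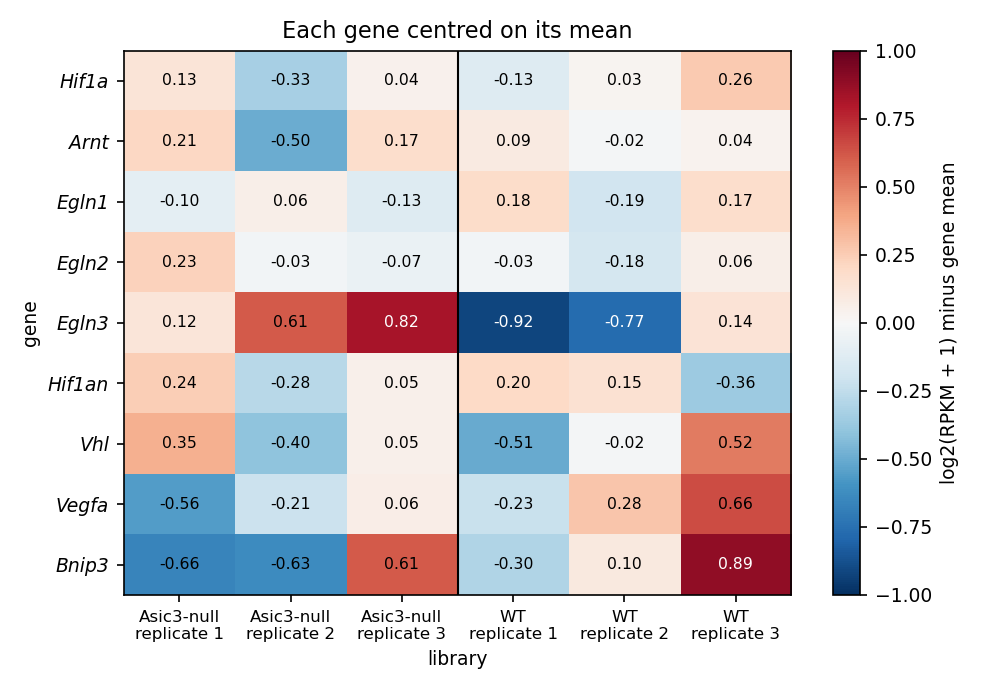
Each of the 9 genes with reads as log2(RPKM + 1) minus its own mean over the 6 libraries, in red above and blue below that mean. Asic3-null replicate 2 is the lowest library for Hif1a and Arnt, WT replicate 3 is the highest for Hif1a, Vhl, Vegfa and Bnip3, and Egln3 is the gene with 3 positive values for Asic3-null libraries.

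Set side by side as mean log2(RPKM + 1), the subunits lay at 2.70 ± 0.21 in Asic3-null libraries and 2.76 ± 0.06 in WT libraries (SD, n = 3 each), the hydroxylases with Vhl at 4.495 ± 0.097 and 4.29 ± 0.181, and the targets at 3.36 ± 0.50 and 3.82 ± 0.52. These are differences of -0.06, 0.21 and -0.46. The subunit values include Epas1, which was at 0 in all 6 libraries. This lowers the subunit level and brings the subunit difference nearer to 0, so the subunit level cannot be ranked against the others. The differences are descriptions of 3, 5 and 2 genes with no test. Among the hydroxylases and Vhl, the log2 fold change was 1.03 for Egln3. It was -0.11 for Egln1, 0.09 for Egln2, 0.01 for Hif1an and 0.0020 for Vhl. The difference of 0.21 therefore rests on Egln3 and does not describe the group as a whole.

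Ordered by mean RPKM over the 6 libraries, Egln2 came first at 62.0, above 86.3% of tested genes, and stood above Egln3 in all 6 libraries. Egln3 at 23.6 and Egln1 at 23.1 followed, and their order differed by label, with Egln3 above Egln1 in all 3 Asic3-null libraries and below it in all 3 WT libraries. This order was noticed in the values and is given with no test. Hif1a came next at 17.7, below Egln1 in all 6 libraries. Hif1a, Vegfa at 16.5, Arnt at 14.8 and Vhl at 14.0 could not be ordered among themselves, with Hif1a above Vegfa in 4 of 6 libraries, Vegfa above Arnt in 3 and Arnt above Vhl in 4. Bnip3 at 8.36 lay below Vhl in all 6 libraries, and it was above Hif1an at 7.49 in 2 of 6.

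The tested genes with the profile nearest to that of Hif1a over the 6 libraries, by root mean square distance of centred log2(RPKM + 1), included Lipt1 (0.051) and Ptges3l (0.054). Those nearest to Egln3 were an Entrez gene without a symbol (100504658, at 0.190), A930004D18Rik (0.228) and Tsc22d2 (0.236). Tsc22d2 had 14.9, 19.6 and 28.3 RPKM in Asic3-null libraries and 6.57, 7.85 and 9.81 RPKM in WT libraries, a log2 fold change of 1.24. Since Tsc22d2 was chosen for its likeness to Egln3 over the same libraries, that difference was largely set by the choice and is given with no test.

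The pathway around the 10 genes was read from 4 lists that hold 83 genes. None of 15 tested genes for HIF partners and stability was called by limma, 9 had a log2 fold change above 0 and 6 below, and the median was 0.15. The 2 genes with an unadjusted p under 0.05 were Hsp90ab1 and Cited2, and 2 of the 15 had groups without overlap. Over all tested genes these shares were 15.9% and 22.6%, so neither count exceeds the general share. Hsp90ab1, a chaperone that holds the alpha subunit, had 1719, 2039 and 1777 RPKM in Asic3-null libraries and 1065, 1340 and 1455 RPKM in WT libraries, with no overlap (log2 fold change 0.53, SE 0.14, limma adjusted p = 0.0952). It was called with limma-voom (adjusted p = 0.0370). Cited2, which competes with HIF for the coactivators CBP and p300, had 188.2, 131.1 and 155.5 RPKM against 181.1, 328.9 and 313.0 RPKM. WT replicate 1 lay within the Asic3-null range, and the log2 fold change was -0.76 (SE 0.23, limma adjusted p = 0.148). Without that library the value was -1.03 (limma adjusted p = 0.0280). Rack1, a scaffold that can direct oxygen-independent degradation of the alpha subunit, had means of 2183 ± 133.5 and 1855 ± 55.1 RPKM (SD, n = 3 each; log2 fold change 0.23, limma adjusted p = 0.318).

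Glucose uptake and glycolysis genes lay on both sides of 0. All 21 were tested and limma called 0, 9 lay above 0 and 12 below, the median log2 fold change was -0.06, and 3 had an unadjusted p under 0.05. Slc2a3, the glucose transporter GLUT3, had 2.51, 3.50 and 3.44 RPKM in Asic3-null libraries and 4.81, 7.65 and 6.51 RPKM in WT libraries (log2 fold change -0.81, SE 0.23, limma adjusted p = 0.123). Pfkfb4, which sets the allosteric activator of phosphofructokinase, had 5.27, 2.498 and 3.04 RPKM against 8.35, 7.49 and 6.03 RPKM (log2 fold change -0.88, SE 0.26, limma adjusted p = 0.132). Pfkm, a phosphofructokinase subunit, went the other way, with 16.3, 15.7 and 16.5 RPKM against 12.9, 10.6 and 10.9 RPKM (log2 fold change 0.46, SE 0.16, limma adjusted p = 0.190). Each of these 3 had groups without overlap, and none passed the adjusted test. Over all tested genes 22.6% had no overlap and 15.9% an unadjusted p under 0.05, so that 3 of 21 is no more than the general share. Reads of glycolysis genes with many pseudogene copies, such as Gapdh, are uncertain.

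Of the 31 other hypoxia targets, 22 were tested, 2 were called lower by limma and 0 higher, where 2.82% of all tested genes were called lower and 0.523% higher. The median log2 fold change was -0.12, with 9 above 0 and 13 below. Adm, Epo and Plod2 were listed at 0 in every library. Hmox1, heme oxygenase 1, fell to 6.03, 4.80 and 7.84 RPKM in Asic3-null libraries from 36.5, 35.2 and 32.4 RPKM in WT libraries. Group means were 6.22 ± 1.53 and 34.7 ± 2.08 RPKM (SD, n = 3 each), with a log2 fold change of -2.33 (SE 0.19, limma adjusted p = 0.000396), and the call held in every alternative run. Ndrg1, a stress-responsive gene of differentiation, fell to 4.93, 6.39 and 6.04 RPKM from 17.3, 15.6 and 15.2 RPKM. Its means were 5.79 ± 0.762 and 16.0 ± 1.10 RPKM (SD, n = 3 each; log2 fold change -1.33, SE 0.17, limma adjusted p = 0.00436), and this call also held in every alternative run. Hmox1 is known to be induced by heme and NRF2 as well as by HIF, and macrophages express it. The neutrophil and monocyte markers above moved the same way as both genes, and their part in these 2 calls was not tested.

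The other 3 targets on that list with an unadjusted p under 0.05 are named after their values were seen. With Hmox1 and Ndrg1, 5 of the 22 tested genes of the list reached that p, where 15.9% of all tested genes did. Stc2, a secreted glycoprotein, had 1.93, 5.62 and 3.09 RPKM against 1.59, 0.573 and 0.942 RPKM on 2 to 24 reads (log2 fold change 1.11, limma adjusted p = 0.169). Plod1, a collagen lysyl hydroxylase, had 30.4, 23.9 and 24.5 RPKM against 31.7, 36.01 and 34.7 RPKM (log2 fold change -0.37, limma adjusted p = 0.267). Ddit4, the mTORC1 inhibitor REDD1, had 80.7, 9.97 and 14.2 RPKM in Asic3-null libraries and 79.6, 58.8 and 97.8 RPKM in WT libraries. Asic3-null replicate 1 lay among the WT libraries and 8.10 times above Asic3-null replicate 2 (log2 fold change -1.71, limma adjusted p = 0.230). Ddit4 was called lower with Asic3-null replicate 1 left out (log2 fold change -2.60, limma adjusted p = 0.00252). Bnip3l, the mitophagy receptor related to Bnip3 and also named after its values were seen, had 31.1, 24.0 and 31.7 RPKM against 35.7, 36.2 and 31.1 RPKM, and its replicate 3 did not stand above the others in the way that of Bnip3 did.

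Of the 13 other oxygen-dependent dioxygenases all were tested, limma called 0, 3 lay above 0 and 10 below, and the median log2 fold change was -0.09. Kdm5c, a histone H3 lysine 4 demethylase on the X chromosome, had 19.2, 20.3 and 23.7 RPKM in Asic3-null libraries and 14.0, 12.1 and 13.7 RPKM in WT libraries, without overlap (log2 fold change 0.63, SE 0.16, limma adjusted p = 0.0719 and 0.0258 with limma-voom). As it escapes X inactivation, sex and genotype label cannot be told apart for it. P4htm, a transmembrane prolyl hydroxylase of HIF, had 1.91, 3.25 and 2.35 RPKM against 1.58, 1.14 and 1.17 RPKM on 4 to 14 reads (log2 fold change 0.60, limma adjusted p = 0.324). Kdm5b, a demethylase related to Kdm5c, had means of 1.55 ± 0.549 and 2.83 ± 0.893 RPKM (SD, n = 3 each; log2 fold change -0.58, limma adjusted p = 0.367).

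**Figure D4:**
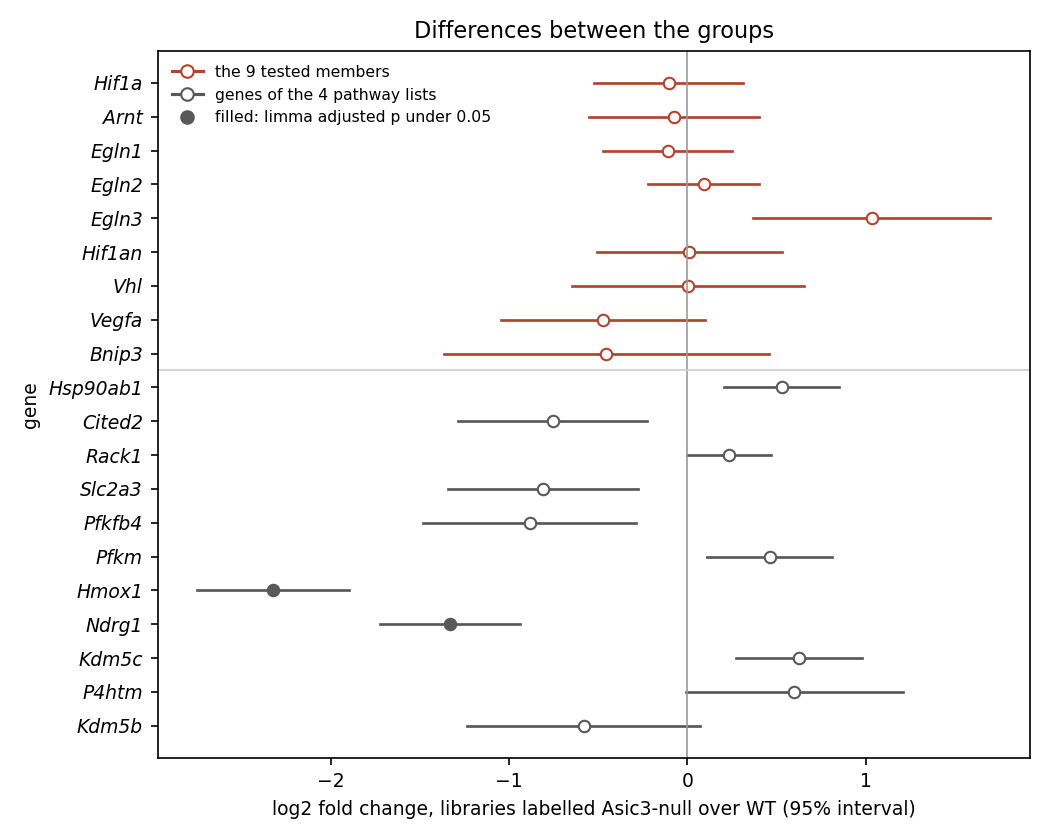
Log2 fold change of Asic3-null over WT libraries, with its 95% interval from limma, for the 9 tested HIF pathway genes and the named genes of the 4 lists. Hmox1 at -2.33 and Ndrg1 at -1.33 are the filled points, with an adjusted p under 0.05, and Egln3 at 1.03 is the member farthest from 0.

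**Figure D5:**
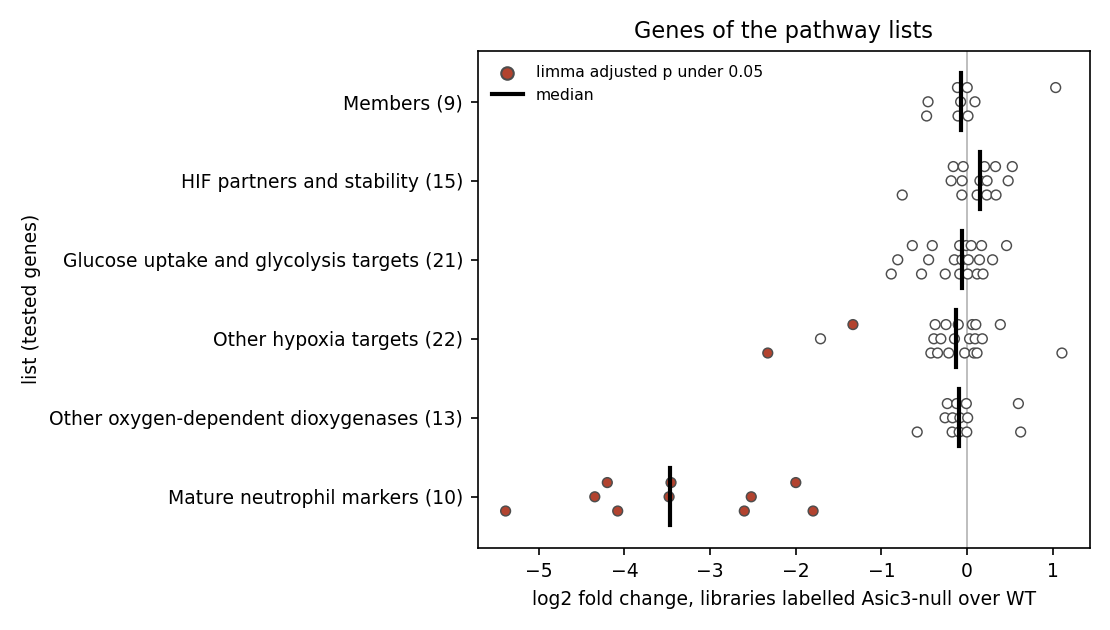
Log2 fold change of each tested gene of the 9 members, the 4 pathway lists and the mature neutrophil markers, with the median as a bar and genes with an adjusted p under 0.05 filled. The medians of the members and the 4 lists lie between -0.12 and 0.15, and that of the 10 neutrophil markers lies at -3.47.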

How the data were processed

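Sorted LICs were sequenced as 3 libraries labelled Asic3-null and 3 labelled WT. According to the submitters' processing notes, the authors used CASAVA 1.8.2 for base calling and TopHat2 2.0.12 for alignment to GRCm38, and deposited RPKM values per Entrez gene. The counting tool and annotation are not given in the sources used here. Fold changes are on the log2(RPKM + 1) scale, which understates those of low genes. The 12037 genes whose mean RPKM reached 1 were tested by limma 3.58.1 in R 4.3.3 with an intensity trend, the label as the only term and Benjamini-Hochberg adjustment at 0.05. Exact permutation tests were two-sided.

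Whole reads were recovered from the RPKM values for all 16825 genes above 0, within 0.0001 reads, and used for limma-voom. RefSeq (GRCm38.p6) gave symbols for 25275 genes and the promoter windows. The steps were tested on simulated data.

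The members and lists were chosen with earlier results of these data known. Genes named are the 10 members, each called gene of the 4 lists (or else the 3 with the lowest p), Asic3, and the 3 genes nearest in profile to Hif1a and to the member with the lowest p, while Stc2, Plod1, Ddit4 and Bnip3l were named after their values were seen, with a few genes under these rules not reported here. Sort, neutrophil, monocyte, erythroid, T cell, B cell, endothelial and stromal markers and Xist were checked. Alternatives were a pseudocount of 0.1, no filter, a filter at a mean of 5 RPKM, median-ratio and quantile scaling, no trend, a block for the replicate number, leaving out each library and limma-voom.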

Additional observations from a re-analysis of the deposited data

How the results depend on the processing

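With limma, 0 of the 9 HIF pathway genes were called, and the count was 1 (Egln3) with the replicate block and 0 to 1 with a library left out, where the 1 came without WT replicate 3. Over all tested genes 403 were called, 246 with the replicate block, 288 with no filter on low values, 546 with limma-voom and 203 (without WT replicate 1) to 293 (without WT replicate 3) with a library left out. The numbers do not pair the samples, since the correlations of same-numbered libraries' deviations were 0.059, -0.059 and -0.123. The adjusted p of Egln3 from limma was 0.0487 with the replicate block and 0.103 to 0.319 in the other settings that did not call it, apart from 0.0503 with limma-voom. HIF partners and stability genes called were 1 with limma-voom (Hsp90ab1) and 0 to 1 with a library left out (Cited2 lower, without WT replicate 1), dioxygenases called were 1 with limma-voom (Kdm5c), and other hypoxia targets called were 2 to 3 with a library left out (Ddit4 lower, without Asic3-null replicate 1). Small log2 fold changes turned sign. Hif1an was at -0.0013 and Vhl at -0.0117 with median-ratio scaling, and Vhl at -0.0134 with limma-voom. With a library left out, Hif1a ran from -0.197 to 0.034, Arnt from -0.199 to 0.155, Egln2 from -0.0006 to 0.148, Hif1an from -0.167 to 0.155 and Vhl from -0.25 to 0.262, and the cause was not tested. Vegfa ran from -0.702 to -0.262, Bnip3 from -0.875 to -0.124 and Egln1 from -0.235 to -0.0478 with a library left out, all without a call. Of the values of single members under the alternatives, 111 kept direction and side of the threshold, 2 became called and 13 turned sign. Depth limits the genes on few reads, such as P4htm and Stc2.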
